A study of Mus musculus with 6 samples.

Results

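The dual-specificity MAP kinase phosphatases are a family of 10 genes, Dusp1, Dusp2, Dusp4, Dusp5, Dusp6, Dusp7, Dusp8, Dusp9, Dusp10 and Dusp16, all of which were among the 19752 genes measured here. The family was chosen by the measured difference of Dusp10 between the groups, so that difference and those of its relatives in the same contrast are described and not tested. RNA of skeletal muscle of mdx mice was hybridised to 6 Affymetrix arrays, 1 per sample. All 6 samples carry the mdx allele, which removes dystrophin, so both groups are dystrophic and no healthy muscle is compared. A group of 3 received anti-CD25 monoclonal antibody, clone PC61, against the receptor chain that regulatory T cells carry, and the control group of 3 received rat IgG. Injections were on days 17 and 20 of age. Dissection 7 days after the last one, as the design text states, does not match the labels' age of 6 weeks. The labels name neither the muscle nor the animals behind a sample, so the errors given cover variation among the samples as deposited, part of which may be technical.

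MAP kinases carry signals of growth (ERK) and of stress and inflammation (JNK and p38) from the cell surface to the nucleus. They are active when a threonine and a tyrosine of their activation loop are both phosphorylated, and phosphatases of this family remove both phosphates and so end the signal. Dusp1, Dusp2, Dusp4 and Dusp5 encode nuclear enzymes whose genes are themselves switched on by MAP kinase signals, Dusp6, Dusp7 and Dusp9 encode cytoplasmic enzymes that prefer ERK, and Dusp8, Dusp10 and Dusp16 encode enzymes that prefer JNK and p38. In mdx mice, loss of Dusp10 has been reported to improve muscle regeneration.

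The RefSeq promoter table, on build GRCm38.p6, held 8 of the 10 genes, all but Dusp4 and Dusp9. The 250 bases before the start of 4 of them are shown, Dusp10 because its values stood apart between the groups and Dusp8 as its relative in substrate preference. Dusp1 and Dusp5 are shown as members among the 5 that were highest on the same control array. The others of those 5 were Dusp10, Dusp4, which has no window, and Dusp6, whose window held none of the elements marked below. The windows shown lie at chr1:184034131-184034380 (plus strand) for Dusp10, chr7:142095285-142095534 (minus strand) for Dusp8, chr17:26508473-26508722 (minus strand) for Dusp1 and chr19:53528895-53529144 (plus strand) for Dusp5. Each is written 5′ to 3′ along its gene, and capitals mark cyclic AMP response elements, TGACGTCA or the shorter TGACG within or apart from it, and CArG boxes, which serum response factor binds, on either strand.
Dusp10: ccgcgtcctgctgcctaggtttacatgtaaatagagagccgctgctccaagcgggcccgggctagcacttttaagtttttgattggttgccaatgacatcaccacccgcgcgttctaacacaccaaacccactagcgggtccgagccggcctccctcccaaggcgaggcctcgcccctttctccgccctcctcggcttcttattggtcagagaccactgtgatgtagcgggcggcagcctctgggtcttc
Dusp8: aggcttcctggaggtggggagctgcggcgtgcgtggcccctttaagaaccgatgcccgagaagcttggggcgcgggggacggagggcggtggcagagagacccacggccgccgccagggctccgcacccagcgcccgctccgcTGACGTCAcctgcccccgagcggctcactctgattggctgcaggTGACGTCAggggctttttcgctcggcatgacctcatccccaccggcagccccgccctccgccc
Dusp1: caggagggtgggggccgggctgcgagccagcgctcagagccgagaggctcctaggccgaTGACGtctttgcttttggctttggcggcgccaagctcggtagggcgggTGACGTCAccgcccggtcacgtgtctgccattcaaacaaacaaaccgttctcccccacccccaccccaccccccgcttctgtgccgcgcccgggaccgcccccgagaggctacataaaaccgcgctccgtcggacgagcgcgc
Dusp5: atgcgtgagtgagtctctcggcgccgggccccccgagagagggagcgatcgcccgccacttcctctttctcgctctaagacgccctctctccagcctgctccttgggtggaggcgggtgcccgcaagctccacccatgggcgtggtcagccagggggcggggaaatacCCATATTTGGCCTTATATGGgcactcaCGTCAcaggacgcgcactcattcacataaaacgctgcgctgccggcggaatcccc
Dusp8 held the full element TGACGTCA 2 times and Dusp1 held it 1 time, against 1.55% of 32851 promoter windows with at least 1. Dusp5 held 2 adjacent CArG boxes, which 1.47% of windows hold at least 1 time, and one TGACG. The Dusp10 window held neither of these elements, and nor did those of Dusp2, Dusp6 and Dusp7, while that of Dusp16 held one TGACG. None of the 8 windows held TATAAA. These are letter matches and not measured binding sites.

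Dusp10 was lower on every anti-CD25 array than on any rat IgG array. Its log2 RMA intensity was 9.65, 9.62 and 9.86 on the control arrays, in the order of replicates 1, 2 and 3. The treated arrays gave 9.20, 9.11 and 8.99 in the same order, which is kept throughout. The lowest control array lay 0.43 log2 units above the highest treated one, more than the range within either group, 0.24 and 0.21. Group means were 9.71 ± 0.13 (SD, n = 3) and 9.10 ± 0.10 (SD, n = 3), a difference, anti-CD25 minus rat IgG throughout, of -0.61 (SE 0.097), or 1.53-fold lower. On the linear scale as deposited, intensities were 789.1 to 931.7 in the control group and 509.6 to 587.5 with anti-CD25. Of all 19752 genes, 4, Dusp10 included, had a difference as low as this or lower, and 36 a difference at least as large in either direction. In whole muscle, less Dusp10 RNA per cell and fewer cells that express it cannot be told apart.

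**Figure D1:**
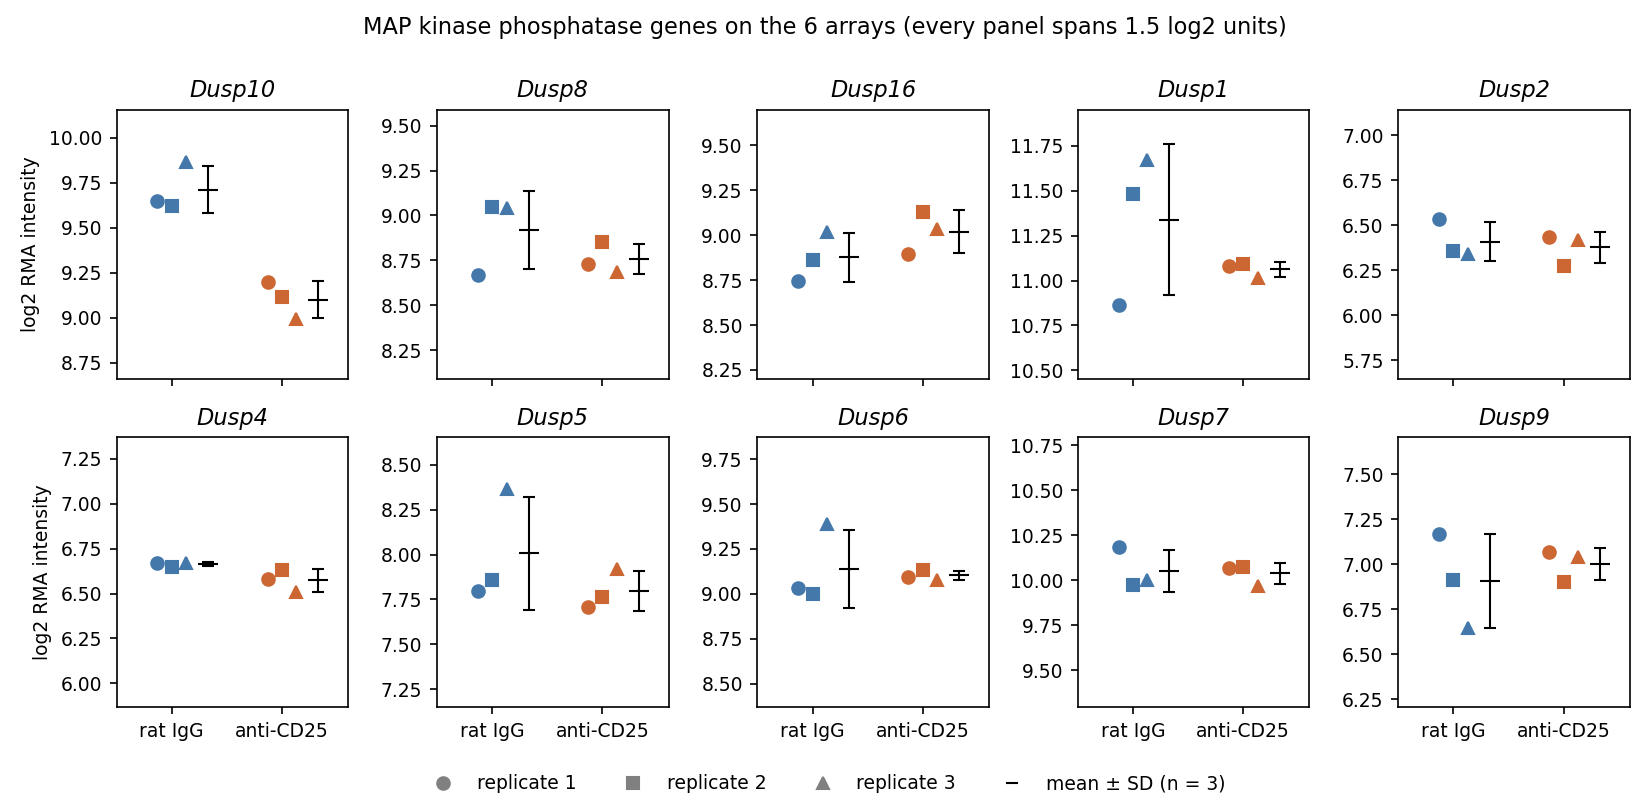
Log2 RMA intensity (vertical axis) of the 10 phosphatase genes on each rat IgG and anti-CD25 array, with symbols for the replicate numbers and black bars for the group mean ± SD (n = 3). Every panel spans the same range, and Dusp10 is the gene with a wide gap between the groups, its control arrays at 9.62 to 9.86 and its treated arrays at 8.99 to 9.20.

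At a threshold of 0.05 on limma's adjusted p, 0% of the 19752 genes were called, and the smallest adjusted p was 0.75. At an unadjusted p under 0.05, limma held 3.98% of genes lower and 2.30% higher. That excess of lower genes turned with the dimmest genes left out, to 400 lower and 484 higher above the 30th percentile of mean intensity. Groups did not overlap, with anti-CD25 lower, in 7.46% of genes and, with anti-CD25 higher, in 4.28%. Among the 10 phosphatases, Dusp10 and Dusp4 were lower without overlap and none was higher without overlap. Nothing is read from that count, since the family was selected on this contrast. In all, 8 of the 10 genes had a negative difference, with a median of -0.063, beside 11631 lower genes and a median of -0.026 over all genes.

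Before the other members are described, differences between the arrays within groups need to be given. Xist, the RNA of the inactive X chromosome, lay at 11.77 to 11.94 on 4 arrays and at 5.48 and 5.49 on rat IgG 3 and anti-CD25 3, although every animal is labelled male. Y-linked Uty was high on those 2 arrays, at 8.77 and 8.57, and at most 3.94 on the others. Each group held 1 such array, so differences are also given for the 4 high-Xist arrays alone and for the low-Xist pair, which has no replicates. In overall profile, rat IgG 3 had the lowest mean correlation across genes with its own group, 0.991, against 0.994 with the other. Rat IgG 1 was also closer to the other group, at 0.995, than to its own, at 0.993. Rat IgG 2 had the lowest mean correlation with the other group, 0.9926. Fibre genes marked the tissue as labelled, with creatine kinase Ckm at 13.56 to 13.66 on the 6 arrays. Foxp3, the regulatory T cell factor, was dim in both groups, 6.57 ± 0.13 (SD, n = 3) and 6.48 ± 0.11 (SD, n = 3), as was the antibody's target Il2ra, at 5.67 and 5.66, levels at which RMA understates differences.

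The Dusp10 difference was -0.48 when only the 4 high-Xist arrays were used and -0.87 for the low-Xist pair. Leaving out 1 array at a time gave -0.66 to -0.54, and without rat IgG 3 it was -0.54. Under every alternative setting run, Dusp10 had the lowest difference of the 10 genes. A relative came closest to it without rat IgG 1, with Dusp1 at -0.51 when Dusp10 stood at -0.64. In the low-Xist pair Dusp1 stood at -0.66, beside Dusp10 at -0.87.

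Its closest relatives in substrate preference, Dusp8 and Dusp16, did not share the pattern of Dusp10. Dusp16, whose product shuttles between nucleus and cytoplasm and acts mainly on JNK and p38, measured 8.75, 8.86 and 9.02 with rat IgG and 8.89, 9.13 and 9.04 with anti-CD25. The groups overlapped and the difference was 0.14 (95% limma interval -0.086 to 0.37), opposite in sign to Dusp10. It was 0.079 without rat IgG 1, 0.089 without anti-CD25 2 and 0.017 for the low-Xist pair. Relative to Dusp16, Dusp10 was lower by a difference of -0.76, with all control arrays on one side and all treated arrays on the other.

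Dusp8, which is known for its expression in brain, heart and skeletal muscle, measured 8.67, 9.05 and 9.04 on the control arrays. With anti-CD25 it measured 8.73, 8.85 and 8.69, all of them above rat IgG 1 and below the other 2 control arrays. The difference was -0.16 (95% interval -0.43 to 0.10), -0.065 for the high-Xist arrays and -0.35 for the low-Xist pair, and it was -0.29 without rat IgG 1. Dusp8 was the member with 2 probe sets, and these disagreed in sign. The dimmer one measured 7.12, 7.52 and 7.29 with rat IgG and 7.53, 7.47 and 7.26 with anti-CD25, a difference of 0.11, and the mean of both gave -0.026.

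**Figure D2:**
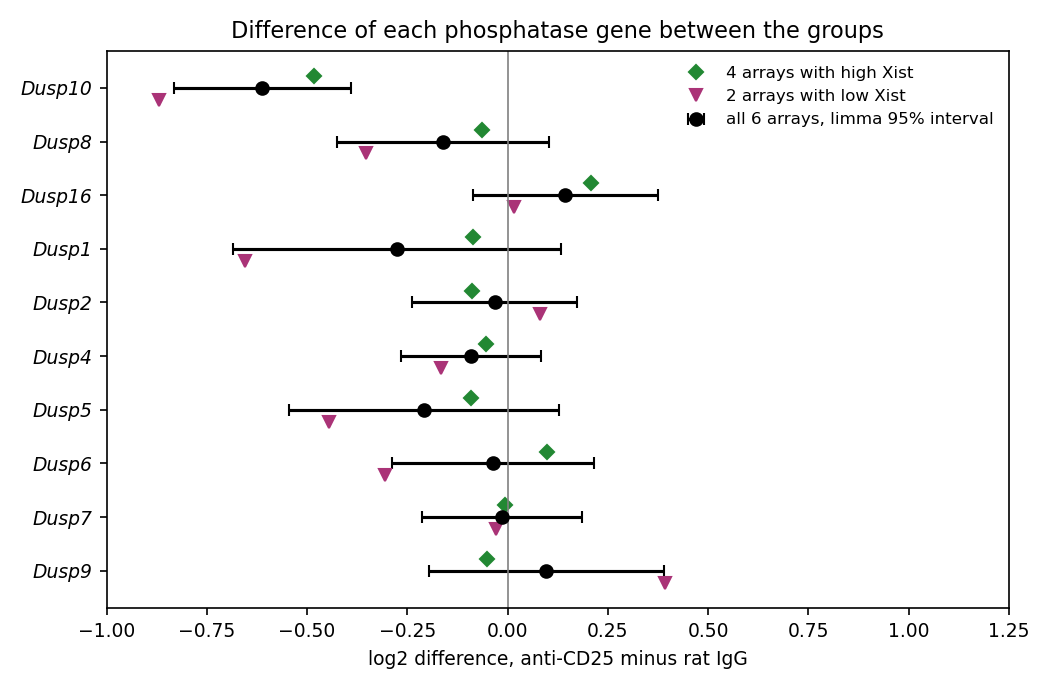
Log2 difference, anti-CD25 minus rat IgG (horizontal axis), of each phosphatase gene over all 6 arrays with its limma 95% interval (black), for the 4 high-Xist arrays (green diamonds) and for the 2 low-Xist arrays (purple triangles). Dusp10 lies at -0.61, with -0.48 and -0.87 in the array classes, and the other 9 genes lie between -0.28 and 0.14 over all 6 arrays.

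Of the nuclear inducible members, Dusp1 and Dusp5 varied most within the control group. Dusp1, an early response gene of stress and glucocorticoids whose product restrains p38 and JNK, measured 10.86, 11.48 and 11.67 on rat IgG 1, 2 and 3. On the anti-CD25 arrays it measured 11.08, 11.09 and 11.01. The control arrays thus spanned 0.80 log2 units and enclosed the treated ones, which spanned 0.078. The difference was -0.28 (95% interval -0.68 to 0.13). It was -0.51 without rat IgG 1 and -0.11 without rat IgG 3, so either array moves it by more than 1.5 times. For the high-Xist arrays it was -0.086, and for the low-Xist pair -0.66.

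Dusp5, a nuclear phosphatase selective for ERK, measured 7.79, 7.86 and 8.37 with rat IgG and 7.71, 7.76 and 7.92 with anti-CD25. Rat IgG 3 alone stood above the rest. The difference of -0.21 (95% interval -0.55 to 0.13) became -0.029 without that array. It was -0.091 for the high-Xist arrays and -0.45 for the low-Xist pair.

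Dusp4, which acts on ERK, JNK and p38 in the nucleus, measured 6.67, 6.65 and 6.67 in the control group and 6.58, 6.63 and 6.51 with anti-CD25. The groups did not overlap, but the gap was 0.018 and the difference -0.090 (95% interval -0.26 to 0.084). Dusp2, known from activated lymphocytes, measured 6.53, 6.36 and 6.34 against 6.44, 6.28 and 6.42, a difference of -0.032 (95% interval -0.24 to 0.17). Its sign turned in 4 of 12 alternatives, among them a repeated quantile normalization, at 0.0086. Dusp2, Dusp4 and Dusp9 lay below the gene median on all 6 arrays, where RMA draws values together and understates differences.

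The ERK-selective cytoplasmic members lay close to 0. Dusp6, a feedback inhibitor that ERK signalling itself induces, measured 9.03, 8.998 and 9.39 with rat IgG and 9.10, 9.13 and 9.08 with anti-CD25. As with Dusp5, rat IgG 3 was the highest array, and the difference of -0.036 (95% interval -0.29 to 0.22) turned to 0.088 without it. Dusp7, its close paralogue, measured 10.18, 9.97 and 9.9999 against 10.07, 10.08 and 9.97, a difference of -0.014 (95% interval -0.21 to 0.19). Dusp9, which is best known from placenta, measured 7.17, 6.91 and 6.65 with rat IgG and 7.07, 6.90 and 7.04 with anti-CD25. It was the member that was lowest on rat IgG 3, and its difference of 0.097 (95% interval -0.20 to 0.39) was -0.035 without that array. For the high-Xist arrays the Dusp9 difference was -0.052, and for the low-Xist pair 0.39. Beyond the sign of Dusp2, Dusp6 and Dusp9, that of Dusp7 also turned, in 2 of 12 alternatives.

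With every gene set relative to its own mean over the 6 arrays, Dusp10 can be compared with the family on each array. Dusp10 stood at 0.24, 0.22 and 0.46 in the control group and at -0.21, -0.29 and -0.41 in the treated group. The mean of the 9 relatives was -0.041, 0.013 and 0.12 in the first group and -0.039, -0.019 and -0.038 in the second. The relatives' mean therefore overlapped between groups, with a difference of -0.064, of which -0.018 was left without rat IgG 3. Dusp10 minus that mean differed by -0.55 between the groups, -0.47 for the 4 high-Xist arrays and -0.71 for the low-Xist pair. Taken against each relative singly, Dusp10 separated the groups in 9 of 9 cases. The narrowest gap was 0.0069 log2 units, against Dusp5, and the next 0.026, against Dusp1. These are descriptions of the gene for which the family was chosen. The 9 cases share its values, so nothing is read from their count.

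Rat IgG 3 was the highest of the 6 arrays for 5 members, Dusp1, Dusp4, Dusp5, Dusp6 and Dusp10, and it was the lowest for Dusp9. Rat IgG 1 was the lowest for Dusp1, Dusp8 and Dusp16 and the highest for Dusp2, Dusp7 and Dusp9. Immediate early genes, which cells switch on within minutes of a stimulus or of handling, also varied within the control group. Over the 23 measured genes of that list, the mean was -0.40, -0.036 and 0.43 on the control arrays and 0.032, 0.065 and -0.088 on the treated ones. Fos, a subunit of the AP-1 factor, measured 7.76, 8.11 and 8.99 and then 8.22, 8.01 and 7.94, and Egr1, a zinc finger factor, 9.05, 9.42 and 10.16 and then 9.003, 9.06 and 8.81. Jun was likewise highest on rat IgG 3, at 10.71, and lowest on rat IgG 1, at 10.18. The list was higher in 13 and lower in 10 genes with anti-CD25, with a median of 0.053. Dusp10 measured 9.65 on rat IgG 1, where the list was lowest, 9.62 on rat IgG 2 and 9.86 on rat IgG 3, where the list was highest. The part of this array difference in the values of Dusp1, Dusp5 and Dusp10 was not tested.

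**Figure D3:**
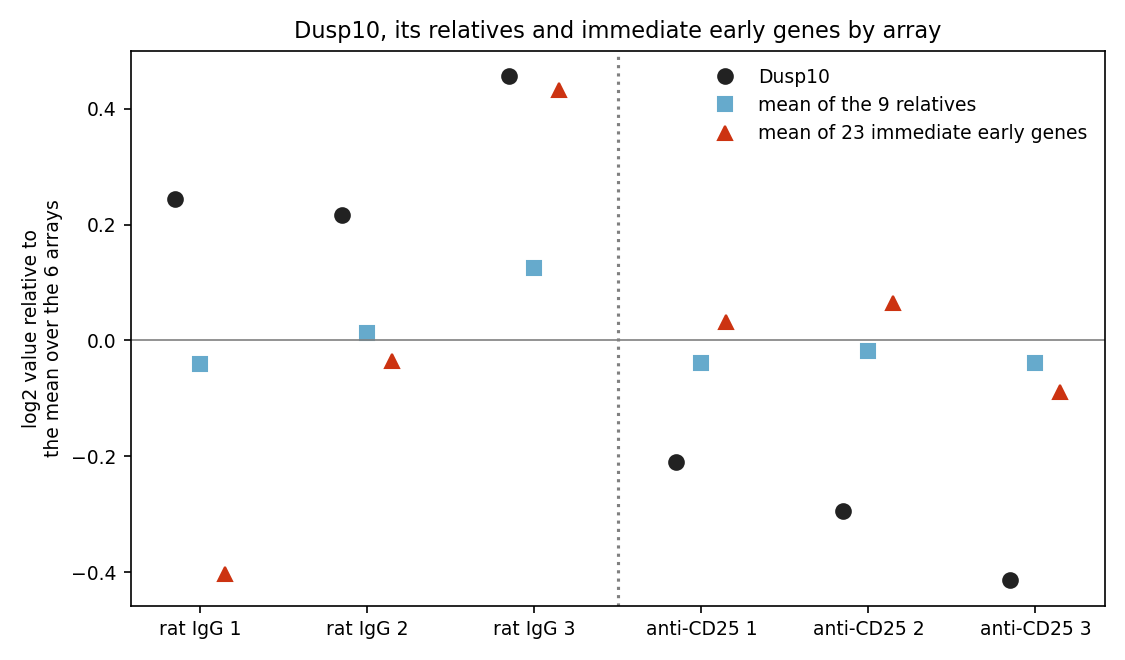
Log2 value relative to the mean over the 6 arrays (vertical axis) of Dusp10, of the mean of its 9 relatives and of the mean of 23 immediate early genes on each array. Dusp10 is above 0 on the 3 rat IgG arrays and below 0 on the 3 anti-CD25 arrays, while the immediate early genes run from -0.40 to 0.43 within the rat IgG group.

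For the kinases that these phosphatases act on, differences were small beside that of Dusp10. The genes of JNK1 (Mapk8) and p38 alpha (Mapk14) differed by 0.036 (95% interval -0.13 to 0.21) and 0.041 (95% interval -0.16 to 0.24). Of 11 measured MAP kinases 6 were lower and 5 higher, with a median of -0.012, and the genes with the smallest p, p38 gamma (Mapk12) and Mapk15, differed by -0.20 (SE 0.094) and -0.19 (SE 0.13). MAP kinase kinases were higher in 5 of 6 genes with a median of 0.036, with Map2k1 at 0.049 (SE 0.083) and Map2k2 at -0.15 (SE 0.11). These arrays measure RNA, and the phosphorylation that the phosphatases remove was not measured.

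Further up, 8 of 21 kinases that start the cascades were higher and 13 lower, with a median of -0.022. Map3k8, a kinase that couples Toll-like receptors to ERK in macrophages, was higher on all treated arrays, as were 4.28% of all genes. It measured 8.01, 7.94 and 7.9998 against 7.41, 7.14 and 7.93, a gap of 0.013 and a difference of 0.49 (SE 0.17). Map3k6 was also higher without overlap, with a gap of 0.048 and a difference of 0.38 (SE 0.14). Scaffolds and activators were higher in 5 and lower in 8 of 13 genes, with a median of -0.036. The ERK scaffold Ksr1 stood at -0.33 (SE 0.13) and the JNK scaffold Mapk8ip1 at -0.15 (SE 0.096). Kinases downstream of MAP kinases split 4 to 4 with a median of 0.014, among them Rps6ka3 at 0.080 (SE 0.086) and Mknk1 at 0.046 (SE 0.079).

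Targets and feedback inhibitors of ERK were lower in 13 of 19 genes, with a median of -0.072. Egr1 had the lowest value, -0.58 (SE 0.24), with rat IgG 3 at 10.16 the highest array. Spry1, an inhibitor of receptor kinase signalling, measured 9.27, 9.27 and 9.40 with rat IgG and 9.16, 9.15 and 9.17 with anti-CD25, a difference of -0.15 (SE 0.078).

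Among 17 atypical dual-specificity phosphatases, which lack the domain that docks MAP kinases, 11 were lower and 6 higher, with a median of -0.074. Dusp12 was at 0.27 (SE 0.11) and Dusp13, a phosphatase of muscle and testis, at -0.22 (SE 0.10). Other phosphatases of MAP kinases were higher in 5 of 8 genes with a median of 0.010, with Ppm1b at 0.12 (SE 0.11) and Ppp2ca at 0.11 (SE 0.12). Over these 8 lists together, 0 of 103 measured genes passed limma's adjusted test, and 5 had an unadjusted p under 0.05, 3 higher and 2 lower. Over all genes, 2.30% were higher and 3.98% lower at that limma p, so nothing is read from the count. None of the 103 had a difference as low as Dusp10, the lowest being Egr1. Only 4 of all 19752 genes had, Dusp10 included, so nothing is read from that either. Their median was -0.019, beside -0.026 over all genes.

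**Figure D4:**
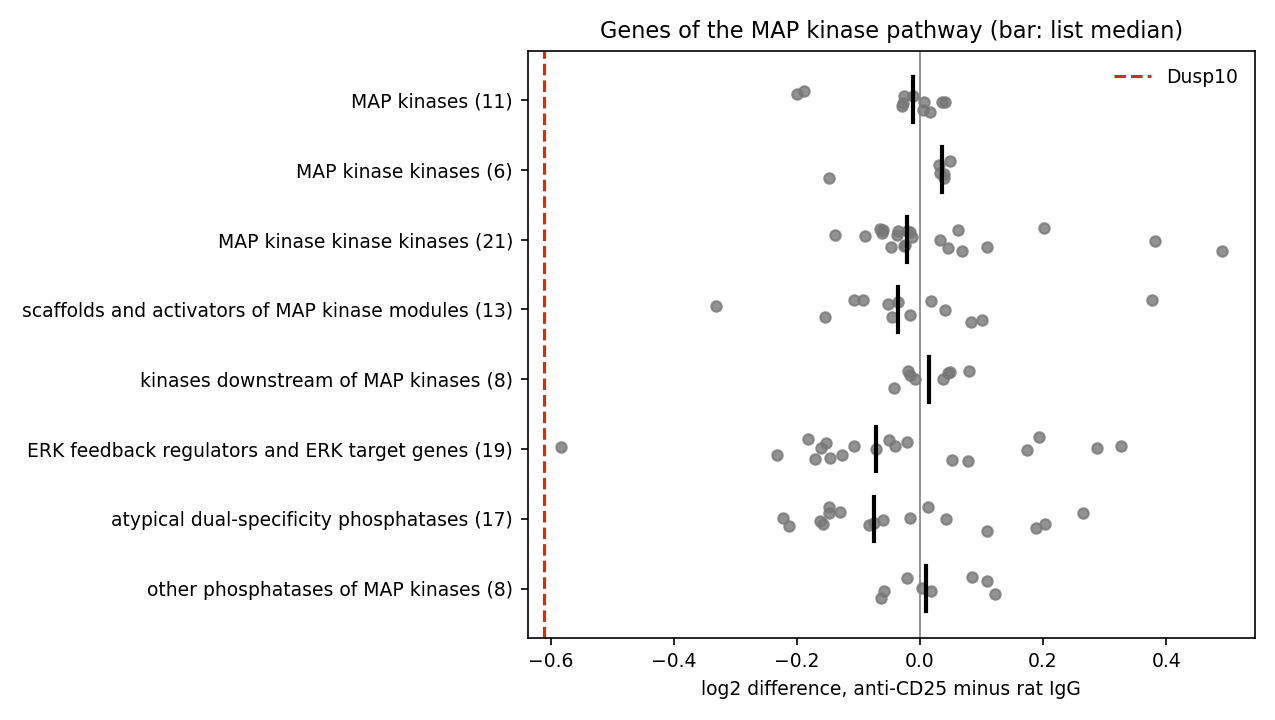
Log2 difference, anti-CD25 minus rat IgG (horizontal axis), of each measured gene in 8 lists of the MAP kinase pathway, with the number of genes in brackets, a black bar at each list's median and a dashed line at Dusp10. Points are spread vertically only to be seen. List medians lie between -0.074 and 0.036, and no gene shown reaches the dashed line at -0.61. Among all 19752 genes measured, 4 reach it, Dusp10 included.

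Other gene lists are given beside Dusp10 by their counts and medians, and their part in the Dusp10 difference was not tested. Macrophage markers were higher in 18 of 19 genes, with a median of 0.30, among them the lysosomal protein Cd68 at 0.45 (SE 0.17). Their mean ran from -0.39 to 0.025 on the control arrays and from -0.063 to 0.33 on the treated ones, so the groups overlapped. Glucocorticoid receptor targets were higher in 16 of 21 genes with a median of 0.33. Fkbp5, a chaperone that binds the receptor, was at 1.01 (SE 0.28), Tsc22d3 at 0.41 (SE 0.18) and Sult1a1 at 0.42 (SE 0.097). Of the 5 list genes that were lower, Fbxo32 had the lowest difference, -0.35 (SE 0.15). Dusp1, a glucocorticoid target outside the list, was at -0.28. The list mean ran from -0.44 to 0.12 and from 0.026 to 0.20. Circadian clock genes were higher in 9 and lower in 7 of 16, with a median of 0.016, and Nr1d1 and Arntl, the 2 with the smallest p, stood at -0.58 (SE 0.12) and -0.39 (SE 0.12). These and Cry2 and Tef were lower without overlap, beside 7.46% of all genes, and Per2 and Nr1d2 were higher without overlap, beside 4.28%. The gap between the groups was 0.32 log2 units for Nr1d1, 0.013 for Arntl, 0.063 for Cry2 and 0.011 for Tef. For Per2 it was 0.0038 and for Nr1d2 0.059. Per1 had the highest difference, 0.68 (SE 0.33), with overlap. The inflammatory cytokines Tnf and Il1b, which p38 and JNK help to induce, differed by -0.33 (SE 0.12) and -0.46 (SE 0.17). Both were dim, below the gene median on every array, and for both the groups overlapped. Of the immediate early list, Egr3 stood at -0.29 (SE 0.10).

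For markers of other cells, list medians were -0.088 for 12 T cell genes, -0.089 for 8 regulatory T cell genes, -0.041 for 10 neutrophil genes, -0.016 for 12 endothelial genes, -0.014 for 8 fibroblast genes and -0.025 for 12 fibre genes. Within the endothelial list, the transcriptional repressor Bcl6b had a lower difference than Dusp10, at -0.75 (SE 0.13), from 8.54, 8.94 and 8.75 to 8.19, 8.01 and 7.78, and is named after its values were seen. Satellite and myogenic cell genes were lower in 6 of 8, with a median of -0.16. Their mean was 0.22, -0.061 and 0.072 on the control arrays and 0.16, -0.18 and -0.21 on the treated ones, which overlap. Over all 19 lists, 0 of 246 genes passed limma's adjusted test.

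The genes whose pattern over the 6 arrays was most like that of Dusp10 were Tsc22d4 (Pearson r = 0.992), Acap3 (r = 0.991), Nab2 (r = 0.983), Klhdc8b (r = 0.978) and Slc4a3 (r = 0.978). They are the extremes of 13092 genes compared, and Dusp10 was chosen for a group difference, so high values are given as a description. Nab2 encodes a corepressor of the Egr factors and Slc4a3 an anion exchanger. Their differences were smaller than that of Dusp10, at -0.15 for Tsc22d4, -0.091 for Acap3, -0.10 for Nab2, -0.21 for Klhdc8b and -0.27 for Slc4a3. Most opposite were Ppargc1a (r = -0.967), Trpv4 (r = -0.961) and Greb1l (r = -0.954). Ppargc1a, the coactivator that drives mitochondrial biogenesis in muscle, measured 9.32, 9.48 and 9.26 with rat IgG and 9.66, 9.90 and 9.94 with anti-CD25, a difference of 0.48 (SE 0.10). Of the relatives, Dusp4 had the highest value (r = 0.834) and Dusp16 the lowest (r = -0.465), which includes the group difference that Dusp10 was chosen for. With each value taken relative to its group mean, the order changed, with Dusp6 highest (r = 0.81, against 0.51 for Dusp4), Dusp16 at 0.30 and Dusp9 lowest (r = -0.59).

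**Figure D5:**
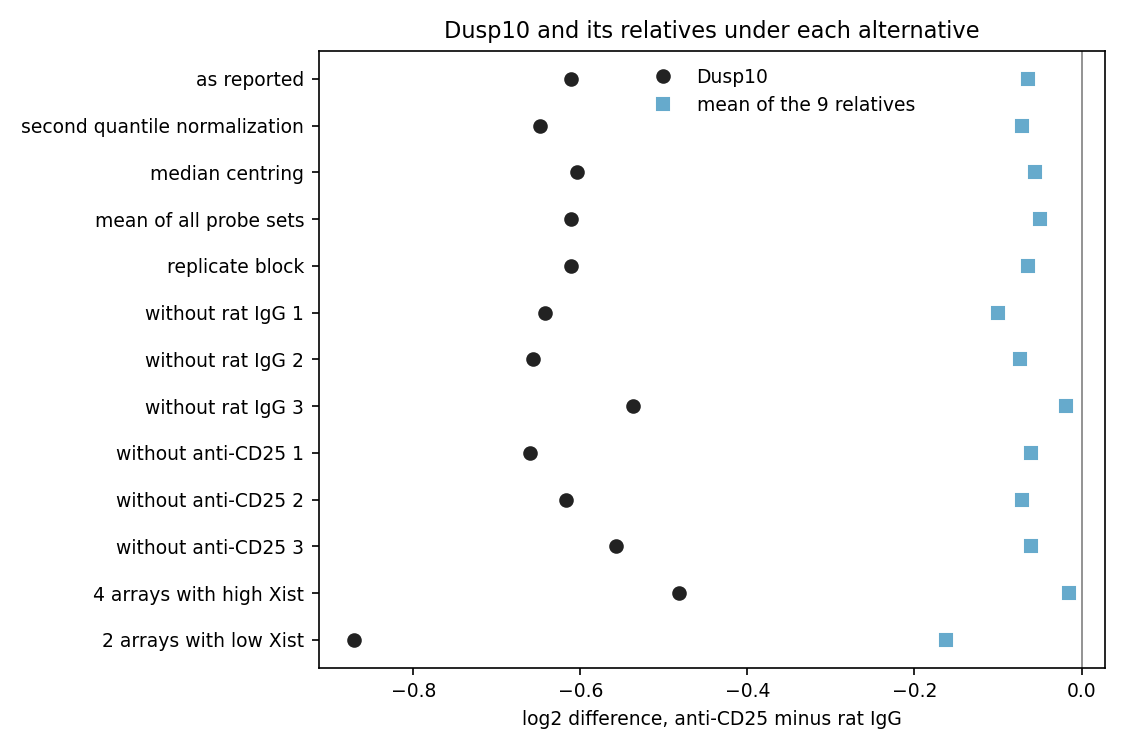
Log2 difference, anti-CD25 minus rat IgG (horizontal axis), of Dusp10 and of the mean of its 9 relatives as reported and under 12 alternatives. Dusp10 lies between -0.87 and -0.48 under the alternatives and the relatives' mean between -0.16 and -0.015.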

How the data were processed

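Arrays of 6 samples, 3 per treatment in the titles, were analysed. The authors deposited 1 table of intensity values on a linear scale for 24922 probe sets, made with RMA in Affymetrix Power Tools per the submitters' processing notes, which corrects background, brings arrays to common quantiles and summarises probes. The version of each tool is not given in those sources. Values were turned to log2 with no pseudocount, as no value was 0 or below. Median intensity per array was 149.8 to 151.5, and precision is limited by having only 6 arrays.

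A platform annotation table named 21425 probe sets with 1 gene symbol, 1399 had several and 2098 were not listed. A gene with more than 1 probe set was represented by its brightest, by mean over the arrays. All 19752 genes were fitted with limma 3.58.1 in R 4.3.3 (lmFit, eBayes, two-sided) with group as the only term, with Benjamini-Hochberg adjustment over all of them at 0.05, and no intensity filter. The fit was tested on simulated data.

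The members and lists were chosen with earlier results of these data known. Named were all 10 members, 14 measured genes fixed by name, the 2 genes of smallest p in each of 11 lists (MAP kinase pathway, immediate early, clock, glucocorticoid), and the 5 genes most and 3 least like Dusp10 above the 30th percentile of mean intensity, predicted and small RNA genes skipped. Other genes were added after their values were seen. Alternatives were a repeated quantile normalization, median centring, the mean of probe sets, a replicate block, other variance models, filters and thresholds, each array left out, and, added after seeing the data, the classes by Xist.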

Additional observations from a re-analysis of the deposited data

Results flagged for a closer look

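Dusp6 moved in opposite directions in the array classes. Within the 4 arrays with high Xist, both anti-CD25 arrays lay above both rat IgG arrays, with a difference of 0.099. Between the 2 arrays with low Xist the difference was -0.31, with rat IgG 3 at 9.39 the highest array. Dusp9 and Dusp2 also changed sign between the classes, but within the high-Xist arrays their groups overlapped. Dusp9 differed by -0.052 for the high-Xist arrays and by 0.39 for the low-Xist pair, and Dusp2 by -0.089 and 0.080. These differences between the classes were not tested, and the low-Xist class holds 1 array per group.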

How the results depend on the processing

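The count of genes past limma's adjusted test was 0 in all of the 16 alternatives except without rat IgG 3, so that the range over arrays left out was 0 to 7, and Dusp10 was not among those 7. Dusp10 kept its sign in all 12 of its alternatives. Its difference of -0.61 ranged from -0.66 to -0.54 with 1 array left out. It was -0.48 for the 4 high-Xist arrays and -0.87 for the low-Xist pair, more than the replicate SD from the value over all arrays. Dusp10 minus the mean of its relatives ranged from -0.60 to -0.50 with 1 array left out, and was -0.71 between the 2 arrays with low Xist. The relatives' mean ranged from -0.10 to -0.018, and was -0.16 between those 2 arrays. No difference is tested between 2 single arrays. Signs turned for Dusp2, Dusp6, Dusp7 and Dusp9 in some alternatives. With the replicate block, 0 genes passed and Dusp10 differed by -0.61. At an unadjusted p under 0.05 it gave 572 lower and 533 higher genes, against 786 and 454 without. These counts, lower and then higher, were 306 and 473 above the 50th percentile of intensity, 1887 and 1143 without rat IgG 3, and 477 and 186 without rat IgG 2. Deviations from the group means correlated at 0.030, -0.0067 and -0.17 for arrays of like number 1, 2 and 3, and at -0.20 to 0.15 for unlike numbers. Arrays of like number shared their Xist class, high for numbers 1 and 2 and low for number 3. With 3 arrays per group, these values cannot show whether the numbers in the titles pair the samples. The limits are 3 arrays per group and dim values of Dusp2, Dusp4 and Dusp9.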
